A study of Mus musculus with 20 samples.

Results

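The TGF-beta, activin and BMP signalling genes described here were 10 of the 46078 genes of the deposited count table, found by matching their symbols to the Ensembl identifiers of the rows. They were the ligand genes Tgfb1, Inhba, Inhbb, Bmp3 and Bmp4, the type I receptor genes Tgfbr1, Acvr1c and Bmpr1a, the type II receptor gene Tgfbr2 and the inhibitory SMAD gene Smad7. Their mRNA was measured by TRAP–seq, in which GFP-tagged ribosomes of a single cell type are pulled from a tissue lysate and the mRNA on them is sequenced. The tissue was epididymal adipose tissue (epiAT) of 20 AdipoERCre x NuTRAP mice on what the labels spell a C576BL6 background. All mice, controls included, carried both transgenes and had received tamoxifen, which activates a Cre recombinase under the adiponectin promoter and thereby switches on the ribosome tag in adipocytes. In the short arm, C mice were chow-fed and 18 weeks old and H mice were of the same age after 12 weeks of HFD. CC_s mice were chow-fed and 26 weeks old, and HC mice of that age had 12 weeks of HFD followed by 8 weeks of chow to induce WL. In the long arm, CC_l mice were chow-fed and 31 weeks old and HH mice had 25 weeks of HFD by that age, whereas CCC mice were chow-fed and 39 weeks old and HHC mice had 25 weeks of HFD followed by 8 weeks of chow. Each short-arm group held 3 mice and each long-arm group 2 mice. The library identifiers of the arms carry different prefixes, which the labels do not explain, and every HFD or WL group was set against the chow group of its own arm and age, and no library served in more than 1 of these 4 comparisons.

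Ligands of this family are secreted dimers that bring a type II and a type I receptor kinase together on the cell surface. The type I receptor then phosphorylates receptor SMADs, with SMAD2 and SMAD3 serving TGF-beta and activins and SMAD1, SMAD5 and SMAD9 serving BMPs, and these enter the nucleus with SMAD4. In adipose tissue TGF-beta is best known for fibrosis and for restraining adipogenesis, BMP4 for committing progenitors to the adipocyte lineage, and activin B and its receptor ALK7 (the product of Acvr1c) for restraining lipolysis in adipocytes.

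The 20 libraries held 10710277 to 36738954 counts on genes (median 20088353), so 3 counts, taken as the limit of detection, stood at 0.0817 to 0.280 CPM (a gene's counts per 1000000 counts of its library). Between 74.4% and 89.2% of the nonzero counts of a library were even numbers, and limits of this kind cover counting error only. All 8 adipocyte markers examined were detected in every group, with summed levels of 10748 to 121319 CPM per library. Several libraries stood apart. C replicate 1 held 1679 CPM of 5 epididymal epithelium markers, against 7.44 and 24.0 CPM in the other C libraries. The H libraries held 92.8, 341 and 121 CPM of them, HH replicate 1 held 145 CPM and HC replicate 2 held 103 CPM. CC_l replicate 1 held 3114 CPM and HC replicate 3 held 434 CPM of 5 spermatid markers, against at most 90.8 CPM in the other libraries. HC replicate 3 and CCC replicate 2 also had the lowest adipocyte sums, at 13660 and 10748 CPM. The 4 libraries left out in turn as standing apart were C replicate 1, CC_l replicate 1, HC replicate 3 and CCC replicate 2, and values that moved are given below. The highest adipocyte sum of all libraries, 121319 CPM, was in C replicate 3, against 19762 and 18214 CPM in the other C libraries. Without C replicate 3, Tgfbr2 and Acvr1c passed the call in H, as given below. Where a chow group is left with 1 mouse, that mouse is taken to vary as the other groups did.

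CPM values were scaled with TMM factors. The quasi-likelihood test of edgeR served for all differences, over the 21464 genes that passed its filter on low counts, and all 10 genes passed. Following the thresholds in the study's methods, a gene is called where its nominal p lies under 0.01 and its level differs by 1 or more on the log2 scale, up or down. The Benjamini-Hochberg adjusted p over all tested genes is printed beside the fold change. Calls rest on the nominal p, so a called gene can have an adjusted p above 0.05. In HC and HHC 0 of all tested genes had an adjusted p under 0.05, against 455 in H and 445 in HH. Fold changes carry their standard error (SE).

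Per kilobase of annotated exon, 3 of the 4 receptor genes were the most abundant of the 10 genes in the chow-fed mice. Acvr1c led with a median of 15.6 CPM per kb over the 10 chow libraries (range 7.61 to 29.6), followed by Bmpr1a at 10.6 (7.91 to 14.5) and Tgfbr2 at 8.73 (5.32 to 18.2). Bmp4 and Tgfbr1 followed at medians of 5.41 and 5.38 CPM per kb, Inhbb and Bmp3 at 3.81 and 3.73, and Smad7 at 2.95. Inhba and Tgfb1 were an order of magnitude lower, at 0.297 CPM per kb (0.153 to 0.511) and 0.263 CPM per kb (0.101 to 0.561). Tgfb1 had 0 counts in HHC replicate 2 and no more than 84 counts in any library, so its values are the least precise of the set. The level ranges of neighbours in this order overlapped throughout, other than those of Smad7 and Inhba. The annotation places genes of the opposite strand over Acvr1c, Bmp4 and Bmpr1a, and because the strand setting of the counting is not given in the sources used here, reads of those partners cannot be told apart from the 3 genes.

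**Figure D1:**
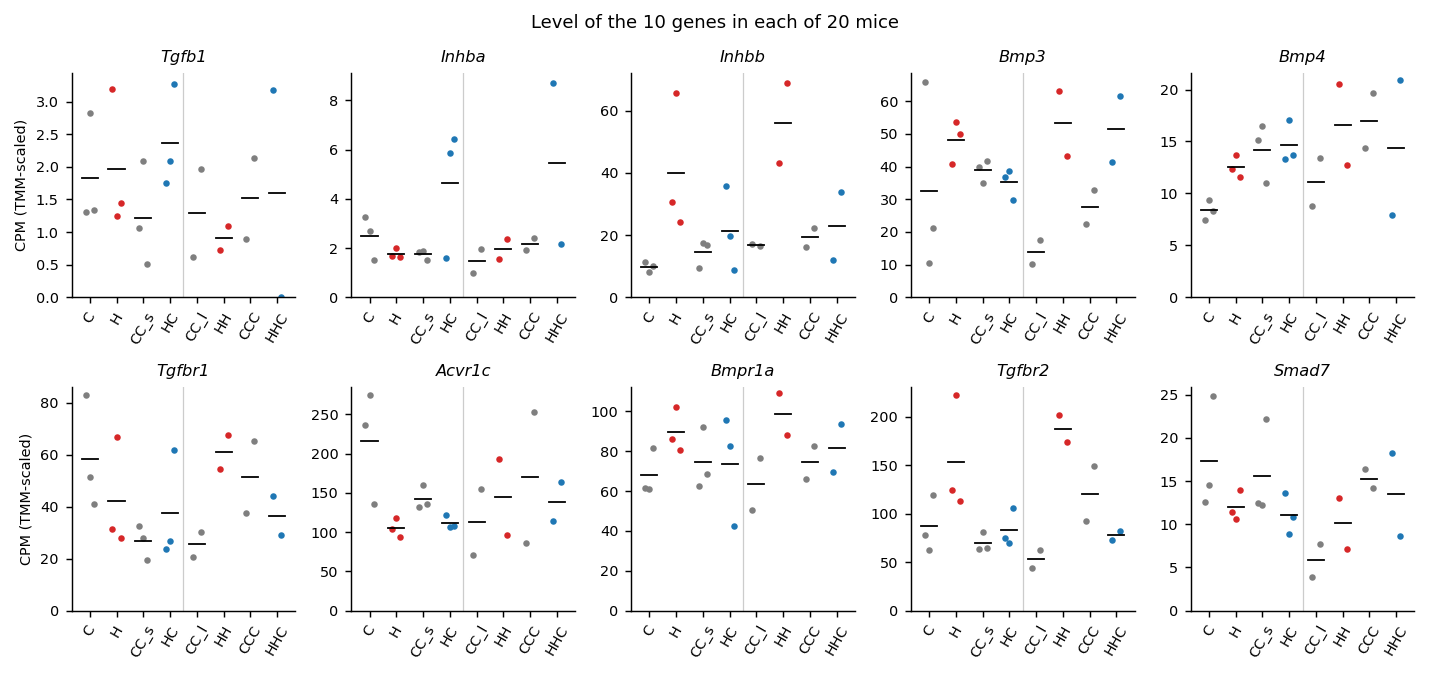
TMM-scaled CPM (linear axis from 0) of each of the 10 genes in the 20 mice, by group. Points are mice, black lines are group means, grey marks chow groups, red HFD groups and blue WL groups, and the vertical line divides the short arm from the long arm. By group mean, Inhbb and Tgfbr2 are highest in HH, where both mice lie above both CC_l mice. For both genes the ranges of HH and H overlap.

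Inhbb, which encodes the beta-B subunit of activin B, had the largest difference in H among the 5 ligand genes. The gene lies on the minus strand at chr1:119415465-119422248 (GRCm38/mm10). Its level was 11.2, 8.04 and 9.94 CPM in the C mice and 30.5, 65.5 and 24.1 CPM in the H mice, so that the lowest H mouse lay more than 2-fold above the highest C mouse. Inhbb rose in H by a log2 fold change of 2.04 (SE 0.51, adjusted p = 0.048), a fold of 4.11. H replicate 2 was the highest of the group, and without it the difference was 1.49 on the log2 scale with adjusted p = 0.278, just outside the call. In the long arm the CC_l mice had 17.1 and 16.4 CPM and the HH mice 43.1 and 68.9 CPM, again without overlap. That difference of 1.74 (SE 0.62, adjusted p = 0.158) missed the nominal threshold and passed it with DESeq2 (adjusted p = 0.0501), without the filter on low counts (adjusted p = 0.0227) and when the fit held CC_l and HH alone (adjusted p = 0.0625).

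After WL the Inhbb levels of treated and chow mice overlapped in both arms. The HC mice had 35.8, 19.6 and 8.82 CPM against 9.40, 17.5 and 16.9 CPM in CC_s, a log2 fold change of 0.55 (SE 0.50, adjusted p = 0.775). The sign of this value rested on HC replicate 1, without which it was -0.04. The HHC mice had 12.1 and 33.8 CPM against 16.0 and 22.4 CPM in CCC, a log2 fold change of 0.26 (SE 0.61, adjusted p = 0.929). By mean level the groups ran HH, H, HHC, HC, CCC, CC_l, CC_s and C, from 56.0 CPM (SD 18.2, n = 2) down to 9.73 CPM (SD 1.60, n = 3), and the ranges of all 7 neighbouring pairs overlapped.

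The promoter of Inhbb is shown with that of Tgfbr2, because these were the genes called with an adjusted p under 0.05. Both are the 250 bases before the RefSeq start site (GRCm38.p6, minus strand, chr1:119422249-119422498 and chr9:116175364-116175613), printed 5′ to 3′ in the orientation of the gene, with capitals for any match to the SMAD motifs CAGAC (a site of SMAD3 and SMAD4), GTCTAGAC (a palindrome they also bind) or GGCGCC (a site of the BMP SMADs) on either strand.
Inhbb promoter: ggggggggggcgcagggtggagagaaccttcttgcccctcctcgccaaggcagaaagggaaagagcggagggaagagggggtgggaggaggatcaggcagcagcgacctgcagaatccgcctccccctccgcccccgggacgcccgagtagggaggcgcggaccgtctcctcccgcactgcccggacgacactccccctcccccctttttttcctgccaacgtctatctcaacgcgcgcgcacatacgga
Tgfbr2 promoter: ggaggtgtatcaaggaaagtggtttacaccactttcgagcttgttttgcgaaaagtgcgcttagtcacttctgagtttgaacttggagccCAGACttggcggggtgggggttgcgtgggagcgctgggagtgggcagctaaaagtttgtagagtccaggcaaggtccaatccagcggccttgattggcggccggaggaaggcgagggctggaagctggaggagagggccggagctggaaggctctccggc
The Inhbb sequence, 68.0% G and C, held none of the 3 motifs, and that of Tgfbr2, 58.4% G and C, held CAGAC at 160 to 156 bases before the start. Promoter windows of 300 bases (250 before and 50 after the start) were at hand for 8 of the 10 genes, 10 windows in all, and not for Bmp3 and Smad7. CAGAC occurred in 2 of these windows (Tgfbr2 and 1 of 2 windows of Tgfbr1), GGCGCC in 2 (Tgfbr1 and Bmpr1a) and GTCTAGAC in 0. Over all 32851 windows, with no chromosome left out, the shares with a match were 49.6%, 11.9% and 0.213%. None of the 3 motifs contains another, and a match describes letters only.

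Inhba, which encodes the beta-A subunit of activin A, was low throughout. It stood between 0.976 and 3.27 CPM in the 10 chow mice, between 1.63 and 2.01 CPM in H and at 1.55 and 2.36 CPM in HH. The highest values were in WL mice, with 1.58, 5.86 and 6.44 CPM in HC and 8.72 and 2.15 CPM in HHC. In each WL group 1 mouse stayed within the chow range, so the groups overlapped. The differences were 1.40 for HC against CC_s (SE 0.67, adjusted p = 0.571) and 1.32 for HHC against CCC (SE 0.82, adjusted p = 0.579), and neither was called. The value in HHC came from replicate 1 and was -0.01 without it, and the value in HC was 1.08 without replicate 3, the library with spermatid transcripts.

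For Tgfb1, the gene of the family's founding ligand, no comparison resolved a difference. Its levels were 0.507 to 2.83 CPM in chow mice, 0.730 to 3.19 CPM in HFD mice and 0 to 3.27 CPM in WL mice. The log2 fold changes were 0.10 in H, 0.95 in HC, -0.49 in HH and 0.05 in HHC, each with an SE of 1.06 to 1.32. All 4 values lay within 1 SE of 0, and a change of about 2-fold either way was not detectable at this depth and spread. Without HHC replicate 1 the remaining HHC mouse had 0 counts of Tgfb1 and the fitted value is no measure of a fold.

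Bmp3 encodes a ligand that is known to oppose other BMPs in bone. In the long arm it stood at 10.3 and 17.4 CPM in CC_l and at 63.1 and 43.4 CPM in HH. Bmp3 rose in HH by 1.94 on the log2 scale (SE 0.59, adjusted p = 0.101), a fold of 3.85. The call was lost without CC_l replicate 1, at a difference of 1.62, and without HH replicate 1, at 1.66. Each of these fits leaves 1 mouse in a group. The levels of the HH and CC_l mice did not overlap. The HHC mice, at 41.4 and 61.5 CPM, also lay above the CCC mice at 22.3 and 32.8 CPM, but the difference of 0.90 (SE 0.58, adjusted p = 0.596) was not called.

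In the short arm the H mice were close together for Bmp3, at 40.9, 53.5 and 49.8 CPM, and the C mice were not, at 65.8, 10.4 and 21.0 CPM. The highest of them was C replicate 1, the library with the most epididymal epithelium transcripts. With it the difference was 0.57 (SE 0.47, adjusted p = 0.567), and without it 1.68 (SE 0.36, adjusted p = 0.0452), which is past the call. The other C mice held 7.44 and 24.0 CPM of the epididymal epithelium markers and the H mice 92.8 to 341 CPM, so leaving out that library did not make the groups alike in them. HC and CC_s mice overlapped at 29.8 to 38.8 and 35.0 to 41.6 CPM (log2 fold change -0.14, SE 0.47, adjusted p = 0.96).

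Bmp4 was higher in all H mice (12.3, 13.7 and 11.6 CPM) than in all C mice (7.41, 9.38 and 8.33 CPM), by 0.58 on the log2 scale (SE 0.37, adjusted p = 0.437), which did not pass the test. Its levels overlapped in the other comparisons, with 8.78 to 20.5 CPM over HH and CC_l and 7.88 to 20.9 CPM over HHC and CCC. Its differences there were 0.05 in HC (SE 0.36), 0.59 in HH (SE 0.45) and -0.24 in HHC (SE 0.45).

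Tgfbr2, the type II receptor that binds TGF-beta, lies on the minus strand at chr9:116084293-116175360 and had the largest difference of the 4 receptor genes in HH. The CC_l mice had 43.5 and 62.3 CPM and the HH mice 202 and 174 CPM, so that both HH mice were more than 2-fold above both controls. Tgfbr2 rose in HH by 1.83 on the log2 scale (SE 0.44, adjusted p = 0.0404), a fold of 3.55. Without CC_l replicate 1, the library with 3114 CPM of spermatid markers, the difference was 1.60 with adjusted p = 0.454 and was not called. In H the levels were 125, 223 and 113 CPM against 78.2, 62.8 and 119.7 CPM in C, and C replicate 3 lay within the H range. The difference of 0.82 (SE 0.35, adjusted p = 0.239) was not called, and was called without that C mouse (1.12, adjusted p = 0.102).

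After WL no difference in Tgfbr2 was called. The HHC mice had 72.9 and 82.6 CPM and the CCC mice 92.7 and 149 CPM, a log2 fold change of -0.64 (SE 0.43, adjusted p = 0.618). The HC mice had 74.8, 70.1 and 106 CPM and the CC_s mice 63.3, 81.7 and 64.8 CPM, a log2 fold change of 0.26 (SE 0.35, adjusted p = 0.864). The effect in HH exceeded that in HHC by 2.47 on the log2 scale (SE 0.61, adjusted p = 0.0688), and the call held when any of the 8 mice of the long arm was left out, with values of 2.10 to 2.79. Part of that difference between effects lay in the chow mice, since both CCC mice were above both CC_l mice (43.5 and 62.3 CPM). By mean level the groups ran HH, H, CCC, C, HC, HHC, CC_s and CC_l, from 188 CPM (SD 19.4, n = 2) to 52.9 CPM (SD 13.3, n = 2), and 6 of the 7 neighbouring pairs overlapped, CC_s and CC_l being the exception.

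Tgfbr1 encodes ALK5, the type I partner of TGFBR2. Its level was 20.7 and 30.3 CPM in CC_l and 54.6 and 67.4 CPM in HH, with no overlap. The difference of 1.26 (SE 0.54, adjusted p = 0.241) was not called, but passed the thresholds when the fit held CC_l and HH alone (1.34, adjusted p = 0.0686) and without the filter on low counts (1.36, adjusted p = 0.116). Without CC_l replicate 1, the difference fell to 1.02. In the short arm the difference was below 0 and rested on C replicate 1, the library with the most epididymal epithelium transcripts. The C mice had 83.0, 51.3 and 40.8 CPM and the H mice 31.6, 66.8 and 28.1 CPM, a log2 fold change of -0.47 (SE 0.43, adjusted p = 0.613) that was -0.09 without C replicate 1. The effects in HH and H differed by 1.73 (SE 0.69, adjusted p = 0.848), outside the call. In HC the value of 61.8 CPM belonged to replicate 3, beside 23.6 and 26.6 CPM, and the log2 fold change went from 0.48 to -0.10 without it. HHC and CCC mice overlapped at 29.0 to 65.1 CPM (log2 fold change -0.50, SE 0.53, adjusted p = 0.778).

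Acvr1c, the gene of the activin receptor ALK7, differed most in H among the receptor genes. Its levels were 103, 118 and 94.3 CPM in H and 237, 275 and 135 CPM in C, and no H mouse reached the lowest C mouse. The difference of -1.03 (SE 0.42, adjusted p = 0.225) was not called by the quasi-likelihood test and was called by DESeq2 (-1.15, adjusted p = 0.0499) and when C replicate 3 was left out (-1.28, adjusted p = 0.11). All 3 HC mice (122, 107 and 107 CPM) also lay below all 3 CC_s mice (132, 160 and 136 CPM), by a log2 fold change of -0.35 (SE 0.42, adjusted p = 0.842). In the long arm the mice of a group were far apart, at 70.8 and 154 CPM in CC_l, 193 and 96.6 CPM in HH, 86.6 and 253 CPM in CCC and 114 and 163 CPM in HHC. The log2 fold change of 0.36 in HH (SE 0.52) changed sign without HH replicate 1 or CC_l replicate 1, and that of -0.29 in HHC (SE 0.51) without CCC replicate 2.

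Bmpr1a, the gene of the BMP receptor ALK3, ranged from 42.4 to 109.1 CPM over the 20 mice. Its lowest level was in HC replicate 3. Both HH mice (109.1 and 88.4 CPM) lay above both CC_l mice (50.2 and 76.5 CPM), but the difference of 0.64 (SE 0.40, adjusted p = 0.41) did not pass the test. In the other comparisons the groups overlapped and the differences were 0.40 in H (SE 0.32), -0.02 in HC (SE 0.32) and 0.13 in HHC (SE 0.40).

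Smad7 encodes the inhibitory SMAD that blocks type I receptors and is itself induced by TGF-beta. It stood at 10.6 to 14.0 CPM in H and 12.5 to 24.9 CPM in C, at 8.91 to 13.6 CPM in HC and 12.2 to 22.2 CPM in CC_s, and at 8.62 and 18.3 CPM in HHC against 14.2 and 16.4 CPM in CCC. The mean level was lowest in CC_l, with mice at 3.90 and 7.73 CPM, and the HH mice had 13.0 and 7.17 CPM. The log2 fold changes were -0.53 in H (SE 0.41, adjusted p = 0.544), -0.49 in HC (SE 0.41, adjusted p = 0.76), 0.80 in HH (SE 0.51, adjusted p = 0.422) and -0.19 in HHC (SE 0.51, adjusted p = 0.948). The groups overlapped in all 4 comparisons.

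**Figure D2:**
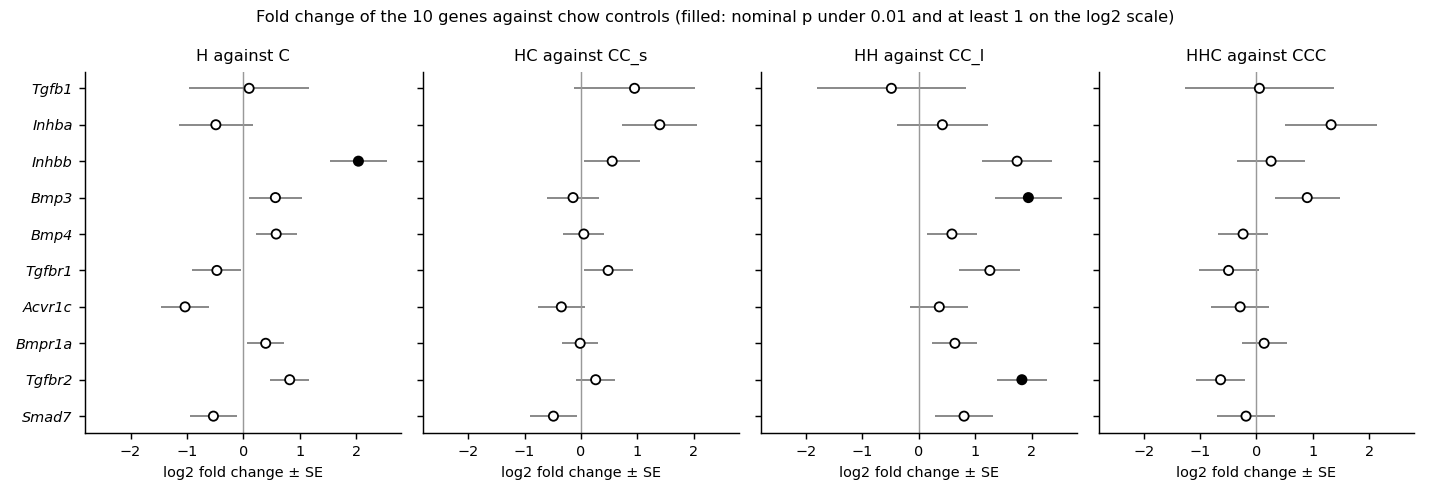
Log2 fold change with its SE (horizontal bars) of the 10 genes in each HFD or WL group against its chow group. Filled points pass the call, which are Inhbb in H and Bmp3 and Tgfbr2 in HH. In HH 9 of the 10 points lie right of 0, and no point is filled after WL.

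The 10 genes were chosen with earlier results of these data known. Counted over them, 1 was called in H (Inhbb), beside 6.49% of all tested genes, and 2 in HH (Tgfbr2 and Bmp3), beside 6.79%. None was called in HC, beside 1.74%, or in HHC, beside 3.12%, where the nominal p was under 0.05 for none of the 10 and DESeq2 called none either. The groups did not overlap for 3 of the 10 in H (23.9% of all tested genes), 1 in HC (13.8%), 5 in HH (55.3%) and 2 in HHC (28.8%). The 5 in HH were Inhbb, Tgfbr2, Tgfbr1, Bmp3 and Bmpr1a, all higher. In HH, where 2 mice stood against 2, 26.3% of all tested genes were higher and 28.9% lower without overlap. The median log2 fold change of the 10 genes was 0.25 in H and 0.72 in HH, where that of all tested genes was -0.15 and -0.23. After WL it was 0.15 in HC and -0.07 in HHC, where that of all tested genes was 0.27 and -0.06.

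Leaving out the 4 libraries that stood apart moved further differences, none of which was called either way. Without C replicate 1 the log2 fold change in H went from 0.10 to -0.07 for Tgfb1 and from -0.49 to -0.21 for Inhba. Without HC replicate 3 the value in HC went from 0.55 to 0.92 for Inhbb, from 0.26 to 0.05 for Tgfbr2, from -0.02 to 0.26 for Bmpr1a, from -0.14 to -0.04 for Bmp3 and from 0.05 to 0.09 for Bmp4. Without CC_l replicate 1 the value in HH fell to 0.0015 for Inhba (0.42 with it), 0.32 for Bmp4, 0.38 for Bmpr1a and 0.40 for Smad7, and that of Tgfb1 went from -0.49 to -1.10. Without CCC replicate 2 the value in HHC went from -0.50 to -0.05 for Tgfbr1, from -0.64 to -0.26 for Tgfbr2 and from 0.26 to 0.52 for Inhbb. It went from -0.24 to 0.0020 for Bmp4, from 0.13 to 0.30 for Bmpr1a and from -0.19 to -0.29 for Smad7. For Tgfb1 it went from 0.05 to 0.81 and for Bmp3 from 0.90 to 1.20.

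The test of the difference between 2 effects called Tgfbr2 alone, for HH against HHC, where 5.84% of all tested genes were called. For H against HC no member was called, beside 2.99% of all genes, although the effect on Inhbb was 1.49 larger in H (SE 0.70, adjusted p = 0.419). That difference was 2.08 without HC replicate 1 (adjusted p = 0.237), which is past the call, and without C replicate 1 the difference for Bmp3 was called (1.89, adjusted p = 0.672). For H against HH and for HC against HHC no member was called, beside 0.913% and 2.88%. Leaving out C replicate 2 brought Bmp3 (1.80, adjusted p = 0.991) and leaving out H replicate 2 brought Tgfbr1 (2.23, adjusted p = 0.672) past the call for HH minus H.

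Markers of other cells of the depot moved with the diet groups in these libraries. Of all tested genes, 6.49% were called in H, 1.74% in HC, 6.79% in HH and 3.12% in HHC. Of those called, 766 of 1392, 337 of 374, 1055 of 1458 and 96 of 669 were higher. Of 10 macrophage markers, 7 were called higher in H, 6 in HC, 10 in HH and 0 in HHC, with summed levels of 703 to 3602 CPM in H against 231 to 413 CPM in C and of 3804 and 5017 CPM in HH against 255 and 416 CPM in CC_l. Of 6 endothelial markers, 5 were called higher in H and 6 in HH, whereas 2 were called lower in HHC, where the sums were 85.1 and 106 CPM against 250 and 585 CPM in CCC. Of 8 adipocyte progenitor markers, 3 were higher in H, 1 in HC and 6 in HH. Of 5 smooth muscle and pericyte markers, 2 were higher in HH and none in the other comparisons, and of 5 lipid-associated macrophage markers 4 were higher in H, 3 in HC, 2 in HH and 0 in HHC. Of 6 mesothelial markers 2 were lower in H and 1 in HHC, no lymphocyte marker was called, and 3 of 5 spermatid markers were higher in HC. All 8 adipocyte markers are listed in every group, and Lep alone among them was called, higher in H. The adipocyte sum was 23945 and 30782 CPM in HH and 48687 and 47815 CPM in CC_l, without a called gene. Among the H mice, replicate 2 had the highest sums of macrophage and progenitor markers (3602 and 3612 CPM). In bulk libraries of this kind, a change in the number of cells of a type and a change in RNA per cell cannot be told apart, and the part of these cells in the values above was not tested.

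**Figure D3:**
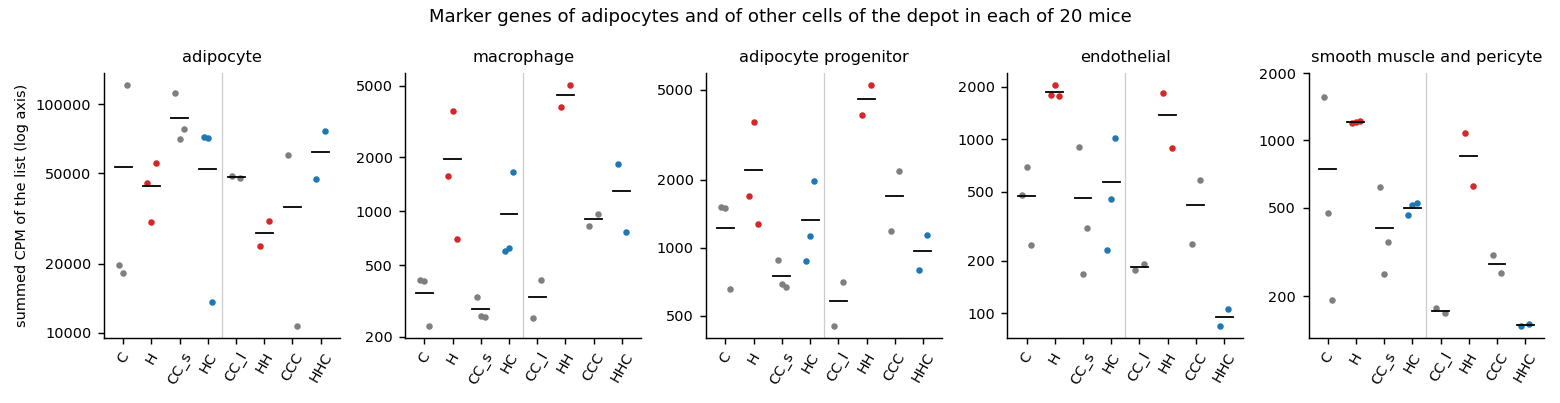
Summed CPM (log axes) of 8 adipocyte, 10 macrophage, 8 adipocyte progenitor, 6 endothelial and 5 smooth muscle and pericyte markers in the 20 mice, by group, with points for mice and black lines for group means. Macrophage and endothelial sums of the H and HH mice lie above those of all their chow controls, and endothelial sums are lowest in the HHC mice.

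The rest of the pathway was described with a list of 95 genes by role, of which 88 were tested and the 10 genes above are part. The list was chosen with earlier results of these data known. In H 11 of the 88 were called (12.5%), 10 of them higher, beside 6.49% of all tested genes. In HH 19 were called (21.6%), 18 of them higher, beside 6.79%. After WL 4 were called in HC (4.55%), 3 of them higher, beside 1.74% of all tested genes. In HHC 7 were called (7.95%), 6 of them lower, beside 3.12%. Among all tested genes that were called, 766 of 1392 were higher in H (55.0%, or 46.5% with RLE normalization), 337 of 374 in HC (90.1%, or 88.8%), 1055 of 1458 in HH (72.4%, or 67.5%) and 96 of 669 in HHC (14.3%, or 27.0%). The median log2 fold change of the 88 genes was 0.18 in H, 0.33 in HC, 0.84 in HH and -0.21 in HHC. That of all tested genes was -0.15 in H, 0.27 in HC, -0.23 in HH and -0.06 in HHC. The effect in HH exceeded that in HHC for 17 of the 88 genes (19.3%) and fell short of it for 0. Of all tested genes 5.84% were called for this difference, with the effect in HH exceeding that in HHC for 1023 and falling short of it for 231. The counts in the long arm changed when a single mouse was left out, which leaves 1 mouse in its group. Without CC_l replicate 1, 8 genes were called in HH, and without HH replicate 1, 12. Without CCC replicate 2, 0 genes were called in HHC, and without HHC replicate 1, 2. In HC 2 were called without replicate 3 or without CC_s replicate 3. Other annotated genes overlap Tgfb2, Tgfb3, Bmp6, Acvr1, Acvr2a, Bmpr2, Tgfbr3, Eng, Fstl3, Ltbp3 and Thbs1, whose values are uncertain to that extent.

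**Figure D4:**
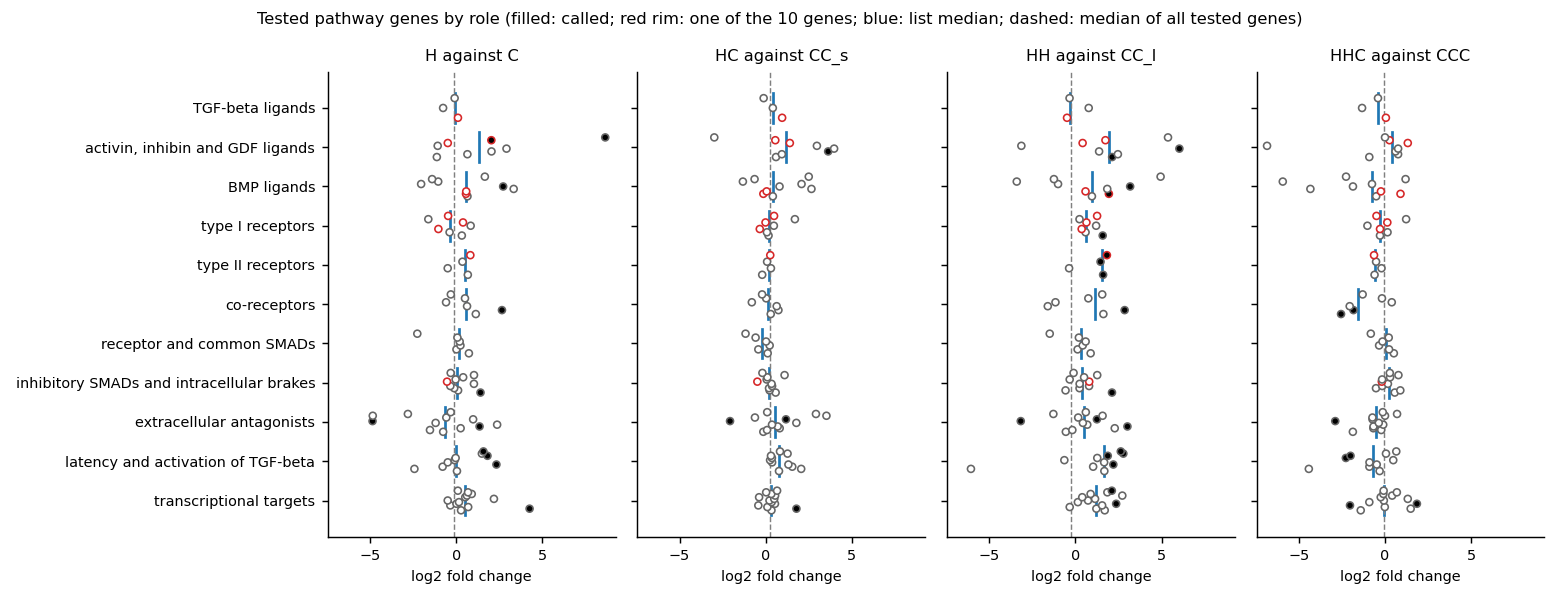
Log2 fold changes of the 88 tested pathway genes in the 4 comparisons, in rows by role. Filled points are called genes, red rims mark the 10 genes, blue bars are medians of a role and dashed lines the median of all tested genes. Fitted values of genes with few counts, such as the point farthest right in H (Mstn), depend on the fit and are no measure of the fold.

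Among the other ligands, Bmp6, a BMP known for its part in iron balance, rose in both HFD comparisons. It stood at 0.871, 2.08 and 2.01 CPM in C, 9.28, 11.4 and 12.4 CPM in H, 2.44 and 1.70 CPM in CC_l and 26.9 and 10.8 CPM in HH. The log2 fold changes were 2.73 in H (SE 0.62, adjusted p = 0.0302) and 3.18 in HH (SE 0.77, adjusted p = 0.0415), the latter lost without HH replicate 1 or CC_l replicate 2. Mstn, the gene of myostatin, had 0 counts in all C mice and 38, 136 and 38 counts in H, and was at least 51.2-fold higher in H when 3 counts over the C group are taken as the limit. Its counts were 96 and 40 in HH, 4 and 0 in CC_l and 0 in all HC and HHC mice. All nonzero counts of Mstn were even, and how read pairs were counted is not given. If both reads of a pair were counted, the limit of 3 counts is too low and the bound of 51.2 too high. Gdf3, a ligand of the receptor ALK7, rose in HH from 0 and 0.393 CPM to 10.9 and 13.1 CPM (log2 fold change 6.04, SE 1.84, adjusted p = 0.101). The Gdf3 call was lost without CC_l replicate 1 or when the fit held CC_l and HH alone. Gdf10, the closest relative of Bmp3, rose in HH from 11.8 and 14.1 CPM to 55.0 and 58.6 CPM (2.13, SE 0.51, adjusted p = 0.0409). In H the levels of Gdf10 were the lower ones, at 18.2 to 25.0 CPM against 34.5 to 63.4 CPM in C (-1.12, SE 0.41, adjusted p = 0.166). Gdf15, a stress-induced hormone, rose in HC from 0.127 to 0.794 CPM to 1.31 to 8.72 CPM (3.62, SE 1.20, adjusted p = 0.536), and lost the call without HC replicate 3, CC_s replicate 2 or CC_s replicate 3. Tgfb2, Tgfb3 and Bmp2 were called in no comparison, with log2 fold changes between -1.33 and 0.96.

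Of the 4 type II receptor genes, 3 rose in HH (75%), beside 6.79% of all tested genes called there. They were Tgfbr2, the activin receptor gene Acvr2a and the BMP receptor gene Bmpr2. Acvr2a stood at 10.1 and 13.8 CPM in CC_l and 44.1 and 28.7 CPM in HH (1.61, SE 0.43, adjusted p = 0.0626). Bmpr2 stood at 55.6 and 73.9 CPM in CC_l and 219.8 and 136 CPM in HH (1.46, SE 0.39, adjusted p = 0.0584). Both calls were lost without CC_l replicate 1 or without HH replicate 1, as was that of the type I receptor gene Acvr1 (1.58, SE 0.45, adjusted p = 0.0795). Acvr2b, the fourth type II receptor gene, was not called in any comparison, with values of -0.49 to 0.30, and none of the 4 was called in H, HC or HHC. Among the co-receptors, Eng, which is abundant in endothelial cells, rose in H from 16.0 to 32.5 CPM to 145 to 157 CPM (2.66, SE 0.51, adjusted p = 0.0120) and in HH from 23.5 and 23.8 CPM to 247 and 96.7 CPM (2.86, SE 0.62, adjusted p = 0.0292). In HHC it fell by 1.83 (SE 0.61, adjusted p = 0.298), to 15.5 and 7.65 CPM. Of 6 endothelial markers, 5 were called higher in H, 6 higher in HH and 2 lower in HHC. Of all tested genes 6.49%, 6.79% and 3.12% were called there in either direction, and a link between these markers and Eng was not tested. Bambi, a pseudoreceptor that blocks signalling, fell in HHC by 2.55 (SE 0.77, adjusted p = 0.276). Both HHC calls were lost without CCC replicate 2 and when the fit held CCC and HHC alone, that of Eng also without HHC replicate 2, with RLE normalization and with halved counts, and that of Bambi also without HHC replicate 1. Tgfbr3, the co-receptor betaglycan, was not called, at 1.56 in HH (adjusted p = 0.166) and -1.30 in HHC (adjusted p = 0.416).

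None of the 6 receptor and common SMAD genes was called in any comparison, and Smad3 and Smad4 had log2 fold changes of -0.34 to 0.60 with SEs of 0.24 to 0.38. Smad4 stood at 25.7 to 49.0 CPM over all 20 mice. Of the 10 genes of inhibitory SMADs and intracellular brakes, 1 was called, Nedd4l, a ubiquitin ligase that marks SMADs for degradation. That is 10% in H and in HH, beside 6.49% and 6.79% of all tested genes. Nedd4l rose from 12.2 to 24.4 CPM in C to 39.8 to 62.8 CPM in H (1.41, SE 0.37, adjusted p = 0.0538) and from 10.0 and 16.6 CPM in CC_l to 58.9 and 57.0 CPM in HH (2.12, SE 0.46, adjusted p = 0.0280). These calls held with any 1 mouse of the compared groups left out. Smad6, the counterpart of Smad7 for BMP receptors, was higher in all H mice than in all C mice, by 1.03 (SE 0.39, adjusted p = 0.187), outside the call.

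Among the extracellular antagonists, Fstl1, a secreted relative of follistatin, rose in HH from 67.1 and 106 CPM to 653 and 752 CPM (3.02, SE 0.57, adjusted p = 0.0225). In H it rose by 1.36 (SE 0.44, adjusted p = 0.122), without the call when H replicate 2 or C replicate 3 was left out, with RLE normalization, or when the fit held C and H alone. Nbl1, another BMP antagonist, rose in HC by 1.17 (SE 0.34, adjusted p = 0.536) and in HH by 1.25 (SE 0.42, adjusted p = 0.132). The HC call was lost without HC replicate 3, CC_s replicate 1 or CC_s replicate 2, and the HH call without any of its 4 mice and with RLE normalization, halved counts or no filter on low counts. In H its difference of 0.98 (adjusted p = 0.145) missed the fold threshold. The activin-binding follistatin genes Fst and Fstl3 were not called, although both HH mice had more Fst (13.2 and 25.1 CPM) than both CC_l mice (3.54 and 4.32 CPM; log2 fold change 2.28, adjusted p = 0.161).

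Of 10 genes that hold or activate latent TGF-beta, 3 rose in H (30%) and 4 in HH (40%). Of all tested genes 6.49% and 6.79% were called there. The median log2 fold change of the 10 was 0.0065 in H, with 5 above 0, and 1.67 in HH, with 8 above 0. Lrrc32, which anchors latent TGF-beta on cell surfaces, stood at 5.55 to 8.83 CPM in C and 27.0 to 45.4 CPM in H (2.34, SE 0.49, adjusted p = 0.0209) and rose in HH from 4.51 and 6.94 CPM to 28.8 and 23.8 CPM (adjusted p = 0.0666). Ltbp4, a latent TGF-beta binding protein, rose by 1.82 in H (SE 0.46, adjusted p = 0.0498) and by 1.88 in HH (SE 0.57, adjusted p = 0.0975). Thbs1, the gene of the activator thrombospondin 1, rose by 1.58 in H (SE 0.52, adjusted p = 0.125) and by 2.63 in HH (SE 0.66, adjusted p = 0.0470). Nrros, which anchors latent TGF-beta on macrophages and microglia, rose by 2.78 in HH (SE 0.81, adjusted p = 0.0855). In HHC the direction was the opposite for 2 genes (20%, beside 3.12% of all tested genes called). Ltbp3 fell by 2.27 there (SE 0.63, adjusted p = 0.234), to 26.4 and 48.5 CPM from 93.0 and 269 CPM, and Ltbp4 fell by 2.00 (SE 0.57, adjusted p = 0.259), to 20.3 and 26.7 CPM from 53.7 and 135 CPM. The HH calls of Lrrc32, Nrros, Thbs1 and Ltbp4 were lost without CC_l replicate 1, and that of Ltbp4 also without CC_l replicate 2 or HH replicate 1. Both HHC calls were lost without CCC replicate 2 or HHC replicate 1 and when the fit held CCC and HHC alone, and that of Ltbp4 also without HHC replicate 2. The H call of Thbs1 was lost without any mouse but H replicate 3 and with RLE normalization.

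Of 13 tested genes that SMADs are known to induce, 1 was called in H (7.69%), 1 in HC (7.69%), 2 in HH (15.4%) and 2 in HHC (15.4%). Of all tested genes 6.49%, 1.74%, 6.79% and 3.12% were called in these comparisons. Cdkn1a, the cell cycle inhibitor p21, which p53 also induces, rose from 5.99, 14.5 and 26.0 CPM in C to 464, 235 and 193 CPM in H (4.26, SE 0.52, adjusted p = 0.00108). It rose in HC from 21.3 to 31.9 CPM to 67.5 to 122 CPM (1.78, SE 0.47, adjusted p = 0.536), and both calls held with any 1 mouse of the compared groups left out. Tgfbi, a matrix protein named for its induction by TGF-beta, rose in HH from 29.3 and 31.0 CPM to 134 and 128 CPM (2.12, SE 0.51, adjusted p = 0.0415). Id2 rose in HH by 2.37 (SE 0.63, adjusted p = 0.0596), a call lost without CC_l replicate 2. Id2 and Id1, transcriptional regulators best known as BMP targets, were called in opposite directions in HHC. Id1 fell by 2.03 (SE 0.62, adjusted p = 0.276), to 7.37 and 14.8 CPM from 44.9 and 45.9 CPM. Id2 rose by 1.85 (SE 0.62, adjusted p = 0.298) with 90.8 and 16.4 CPM against 15.4 and 14.2 CPM in CCC, and the value was 0.14 without HHC replicate 1. The Id2 call in HHC was lost without either CCC mouse or HHC replicate 1, the Id1 call without CCC replicate 2 or HHC replicate 1, and both when the fit held CCC and HHC alone.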

How the data were processed

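mRNA on GFP-tagged adipocyte ribosomes was sequenced in 20 libraries of oligo-dT primed, tagmented cDNA. Per the submitters' processing notes and the study's methods, the authors used FastQC 0.11.9, Trim Galore 0.6.6, HISAT2 2.2.1 (mm10) and featureCounts of Subread 2.0.1, and deposited raw counts per Ensembl gene. Which annotation release was counted, whether by strand, and how pairs were treated is not given in the sources used here. Symbols, exon lengths and positions came from GENCODE vM21 and promoters from RefSeq.

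Counts were filtered (filterByExpr), TMM-scaled and fitted with edgeR 4.0.16 in R 4.3.3 over all 8 groups at once, so that groups share 1 estimate of the spread. Calls and adjusted p-values are as given above, and SE is the log2 fold change over the square root of F. Differences between effects were contrasts of the same fit. The script was tested on simulated data. The study calls the replicates biological replicates. Named genes were the 10 genes, 14 fixed pathway genes and, per role and comparison, at most the 3 called genes with the largest change. Some of the genes this rule names are not reported here. The members and lists were chosen with earlier results of these data known. Alternatives were DESeq2 1.42.0, RLE normalization, no filter, the compared groups alone, a replicate block, halved counts and leaving out each mouse, and, chosen after seeing the data, a crossed block. Depth was 10710277 to 36738954 counts.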

Additional observations from a re-analysis of the deposited data

Results flagged for a closer look

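The following differences between 2 effects passed a nominal p under 0.01 and a size of at least 1 on the log2 scale in edgeR's quasi-likelihood test. Among the 10 genes this was Tgfbr2, whose effect in HH exceeded that in HHC by 2.47 (SE 0.61, adjusted p = 0.0688). For the 10 genes every difference was searched. For the other named genes only HH against H and HHC against HC were searched, so the list below is not complete. Of the 78 other tested pathway genes, 16 were called for HH against HHC, where 4 had an adjusted p under 0.05. For H against HC 4 were called, where 0 had an adjusted p under 0.05. Of all tested genes 5.84% and 2.99% were called for these 2 differences.

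Among the other named genes, the effect in HH exceeded that in H by 3.26 for Gdf10 (SE 0.65, adjusted p = 0.848), 2.35 for Id2 (SE 0.78, adjusted p = 0.848) and 2.02 for Tgfbi (SE 0.64, adjusted p = 0.848). For Cdkn1a the effect in HH was the smaller, with a difference of -3.04 (SE 0.74, adjusted p = 0.848). The adjusted p of all 4 was 0.848. Cdkn1a, the cell cycle inhibitor p21, stood at 47.3 and 76.4 CPM in CC_l and 119 and 169 CPM in HH.

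The effect in HHC lay below that in HC by -2.56 for Eng (SE 0.77, adjusted p = 0.343), -2.84 for Bambi (SE 0.95, adjusted p = 0.344), -1.90 for Nbl1 (SE 0.54, adjusted p = 0.343), -2.63 for Ltbp3 (SE 0.78, adjusted p = 0.343) and -2.30 for Ltbp4 (SE 0.72, adjusted p = 0.343), with adjusted p-values of 0.343 to 0.344. These pairs of arms differ in library prefix, age and weeks of diet, which cannot be told apart.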

How the results depend on the processing

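With DESeq2, 2 of the 10 genes were called in H (1 as reported) and 17 pathway genes (11 as reported). Without the filter on low counts, 17 pathway genes were called in H, 7 in HC (4 as reported) and 29 in HH (19 as reported), 4 of the 10 genes in HH (2 as reported), and 1 for the difference between H and HH (0 as reported). With only the compared groups, 4 of the 10 were called in HH and 1 pathway gene in HHC (7 as reported). Signs changed for Tgfb1 in H (-0.014 with DESeq2 and with RLE normalization), Bmp4 in HC (-0.017 with halved counts) and Bmpr1a in HC (0.057 without the filter). The cause was not tested.

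The replicate numbers did not pair the mice: same-numbered mice correlated at -0.28 to 0.19 in the short arm and at -0.19 and -0.26 in the long arm. With the replicate block the counts of the 10 genes were 1, 0, 2 and 0 in H, HC, HH and HHC, and those of pathway genes 10, 4, 17 and 5. The block ended the calls of Fstl1 in H, Gdf3 and Nbl1 in HH, and Eng and Id2 in HHC. With the replicate block crossed in the long arm, chosen after seeing the data, 3 pathway genes were called in HHC and Tgfb1 there was at -1.77.

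Leaving out 1 mouse at a time, the calls among the 10 genes ranged from 0 to 3 in H, 0 to 0 in HC, 0 to 2 in HH and 0 to 1 in HHC, and for the differences from 0 to 1 (H and HC), 1 to 2 (HH and HHC), 0 to 1 (H and HH) and 0 to 1 (HC and HHC). In H the count was 2 without C replicate 1, 3 without C replicate 3 and 0 without H replicate 2, and in HH 0 without CC_l replicate 1 and 1 without HH replicate 1. Pathway counts ranged from 8 to 12 in H, 2 to 4 in HC, 8 to 19 in HH and 0 to 9 in HHC. Log2 fold changes that changed sign ranged in H from -0.44 to 0.56 for Tgfb1. In HC they ranged from -0.10 to 0.72 for Tgfbr1, -0.039 to 0.92 for Inhbb, -0.11 to 0.17 for Bmp4 and -0.25 to 0.26 for Bmpr1a. In HH they ranged from -1.10 to 0.60 for Tgfb1 and -0.21 to 1.06 for Acvr1c. In HHC they ranged from -8.07 to 1.06 for Tgfb1, -0.013 to 2.01 for Inhba, -0.67 to 0.81 for Inhbb, -0.87 to 0.68 for Acvr1c, -1.11 to 0.29 for Bmp4, -0.10 to 0.33 for Bmpr1a and -0.83 to 0.26 for Smad7. The value of -8.07 rests on 1 HHC mouse with 0 counts and is no fold. The 3 calls among the 10 genes against chow each kept their direction in every fit. Tgfb1 and Inhba had at most 84 and 146 counts in a library.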
